A study of Homo sapiens with 4 samples.

Results

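The transcription factors that give intestinal epithelium its identity were examined in Caco-2 cells, a human colorectal carcinoma cell line that forms a polarized monolayer and is widely used as a model of enterocytes. The 8 genes CDX1, CDX2, HNF4A, HNF4G, GATA4, GATA6, FOXA1 and FOXA2 were taken by name from a table of raw RNA-seq counts for 37515 genes. The rule used no measured value, but it was written with earlier results of these data known. Each of the 8 had a row, and 7 of them were among the 14820 genes that passed the filter on low counts. CDX1 did not pass. The cells were kept in transwell inserts for 15 days before stimulation. In 2 libraries, here called IFNγ replicates 1 and 2, the basal side of the inserts then received 60 ng/ml of interferon gamma (IFNγ) for 3 h. The 2 unstimulated libraries, replicates 1 and 2, come from cells at 0 h that received medium alone. The sample titles call all 4 libraries WT. Stimulation and the 3 h that separate the groups cannot be told apart in this design. The labels name no separate cultures, so the p-values measure the spread between these libraries, which may be technical.

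These factors work as families of paralogs. CDX1 and CDX2 are homeodomain proteins that set and maintain the intestinal program. HNF4A and HNF4G are nuclear receptors that bind enhancers of genes for lipid transport and the brush border, and they can replace each other in part during enterocyte differentiation. GATA4 and GATA6 are zinc finger factors, of which GATA4 marks the proximal small intestine and GATA6 is found along the whole gut. FOXA1 and FOXA2 are forkhead pioneer factors that can bind closed chromatin in endoderm and act in liver, pancreas and secretory gut cells. IFNγ, a T cell cytokine of the celiac lesion, signals through JAK kinases, acts on GAS elements in the promoters of its target genes and induces IRF1.

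The libraries held 7171455 to 10365346 counts, and 1 count was worth 0.0973 to 0.140 CPM, the count scaled to the effective library size by the TMM method. The labels were checked on known IFNγ-induced genes, of which 7 were tested, all 7 had a positive fold change and 6 were called. IRF1 was at 19.3 and 20.2 CPM in unstimulated cells and at 1201 and 1085 CPM after IFNγ. All 8 epithelial markers were tested, and their summed level was 7418 to 9163 CPM. Of the markers of other cells, several defining ones were at or near 0. CHGA and CLCA1, of enteroendocrine and goblet cells, had 0 counts in all 4 libraries. PTPRC of leukocytes had 0, 0, 2 and 0 counts, and COL1A2 of fibroblasts 0, 1, 0 and 0. The goblet list nonetheless summed to 39.0 to 54.7 CPM, nearly all of it TFF3 at 38.6 to 54.2 CPM. The summed leukocyte list was at 6.43 to 11.3 CPM, with CD14 at 3.51 to 8.87 CPM. The endothelial list summed to 1.26 to 2.32 CPM, with VWF at 1.12 to 2.18 CPM. The enteroendocrine list summed to 0.981 to 1.77 CPM, all of it CHGB, which had 14 and 7 counts in unstimulated cells and 11 and 13 after IFNγ. The fibroblast list summed to 111 to 206 CPM, of which COL1A1 made 89.4 to 179 CPM. Hepatocyte genes, which Caco-2 cells also express, summed to 5146 to 5918 CPM.

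The promoter of CDX2 is shown because CDX2 was the factor that rose, and the upstream promoter window of HNF4A because HNF4A had the highest level in unstimulated cells. Both are the 250 bases before an annotated start site, written 5′ to 3′ on the strand of the gene, from RefSeq on GRCh38.p14, whose table held a window for 4 of the 8 factors. Capitals mark matches to the motifs searched on both strands.
CDX2, chr13:27969316-27969565, minus strand: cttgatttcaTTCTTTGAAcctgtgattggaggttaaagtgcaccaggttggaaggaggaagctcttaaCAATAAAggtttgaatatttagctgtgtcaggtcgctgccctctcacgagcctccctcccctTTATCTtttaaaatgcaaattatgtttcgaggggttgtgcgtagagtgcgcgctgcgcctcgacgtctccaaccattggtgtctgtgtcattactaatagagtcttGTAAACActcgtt
HNF4A, chr20:44355449-44355698, plus strand: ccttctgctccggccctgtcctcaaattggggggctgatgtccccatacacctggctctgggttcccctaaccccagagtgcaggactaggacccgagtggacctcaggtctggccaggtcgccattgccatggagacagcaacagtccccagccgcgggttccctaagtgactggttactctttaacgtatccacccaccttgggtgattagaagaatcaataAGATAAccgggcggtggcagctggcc
The first capitals of the CDX2 window are a match to the GAS motif TTCNNNGAA, 240 to 232 bases before the start, a motif that 6.57% of 35116 windows of this length held. The next are a match to the CDX motif TTTATNG at 181 to 175 bases (8.93% of windows), to the GATA motif AGATAA at 119 to 114 bases (9.17%) and to the FOXA motif TNTTTAC at 13 to 7 bases (9.58%), each on the opposite strand. The HNF4A window held a GATA match at 26 to 21 bases before the start. The second HNF4A window and those of GATA6 and FOXA1 held no match to these, to the ISRE motif (3.02% of windows) or to the HNF4 motif CAAAGTCCA (0.325%). None of these motifs overlapped in the windows shown. A match of letters is a description and not a bound site.

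Of the 7 tested factors, CDX2 was called higher and HNF4G and GATA4 were called lower after IFNγ. Calls were made by edgeR's quasi-likelihood test, at an adjusted p-value (Benjamini-Hochberg) under 0.05 and a change of more than 1 on the log2 scale. Among all 14820 tested genes, 2.88% were called higher and 4.40% lower. The adjusted p-value alone passed the same 3 factors, against 9.02% of all tested genes in the higher and 11.0% in the lower direction. The other 4 tested factors had log2 fold changes from −0.23 to 0.42 that missed the test. The CPM ranges of the groups did not overlap for any tested factor, including these 4. The share of all tested genes without overlap was not computed, so the lack of overlap is not a result particular to these factors. Full separation of 2 libraries from 2 has p = 0.333 in a two-sided exact permutation test, so it is weak evidence here and below. The median log2 fold change over the 7 factors, which is the value of FOXA2, was 0.30, and that over all tested genes was −0.01. Without IFNγ replicate 2 the median of the factors was 0.047, and with the trend of GC content and length removed it was −0.017. In bulk RNA, fewer cells of a type and less RNA per cell cannot be told apart.

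**Figure D1:**
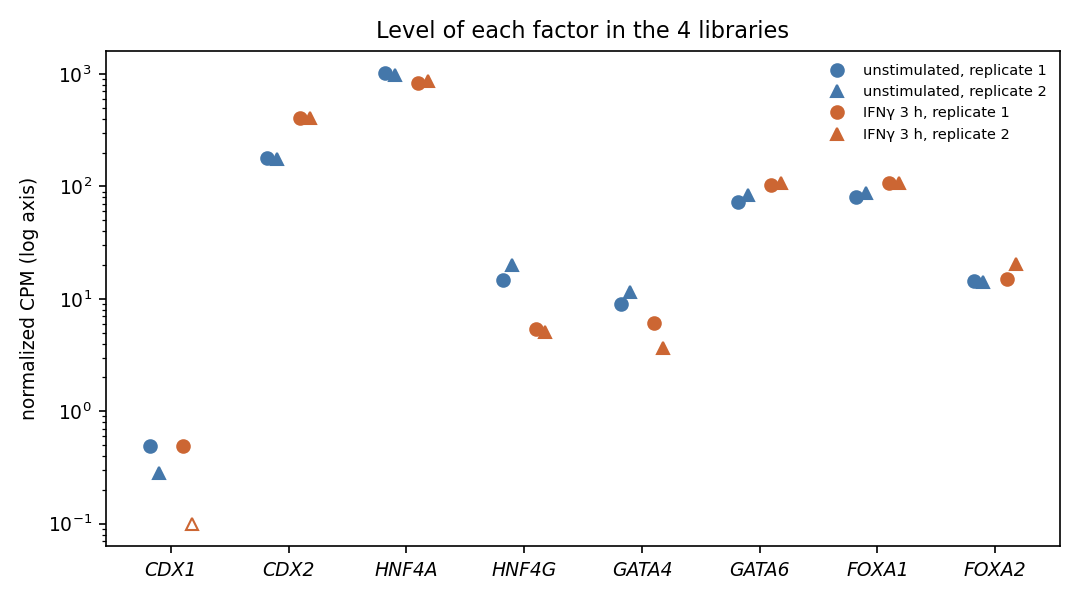
Normalized level (CPM, log axis) of each of the 8 factors in each library, with unstimulated cells in blue and IFNγ in orange, replicate 1 as circles and replicate 2 as triangles. The open triangle marks 0 counts of CDX1 in IFNγ replicate 2, drawn at the foot of the axis. CDX2 moved from 177 and 178 CPM to 406 and 409 CPM, while HNF4G and GATA4 lay lower in both IFNγ libraries.

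CDX2, the homeodomain factor that specifies intestine, rose 2.30-fold. It had 1825 and 1263 counts in unstimulated replicates 1 and 2, and 4207 and 2972 counts in IFNγ replicates 1 and 2. In CPM these were 177.7 and 177.0 against 409.2 and 405.5, or 177 ± 0.534 and 407 ± 2.61 (mean ± SD, n = 2 each). Replicates of one group lay within a few CPM of each other, and the groups did not overlap. The fitted log2 fold change was 1.20 (SE 0.105, edgeR adjusted p = 0.00117), and both same-numbered comparisons gave 1.20. A share of 97.6% of all tested genes had a smaller log2 fold change. CDX2 (ENSG00000165556) is annotated on the minus strand of chromosome 13 from 28535055 to 28543452 on GRCh37, with 3517 bases of exon.

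CDX1, its paralog, was close to absent. It had 5 and 2 counts in unstimulated cells and 5 and 0 after IFNγ. A count of 0 in IFNγ replicate 2 allows up to 0.409 CPM, so that a change of CDX1 was not detectable at this depth. The groups overlapped. CDX1 (ENSG00000113722) is annotated on chromosome 5 from 149546341 to 149564121 of the plus strand.

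HNF4A, the nuclear receptor that drives apolipoprotein and brush border genes, was the factor with the highest level in unstimulated cells. It had 10442 and 6998 counts in unstimulated replicates and 8602 and 6373 after IFNγ, that is 999 ± 25.7 CPM against 853 ± 23.2 CPM (mean ± SD, n = 2). The groups did not overlap, both IFNγ libraries being below both unstimulated ones. The log2 fold change of −0.23 (SE 0.103) missed the threshold (edgeR adjusted p = 0.161). HNF4A (ENSG00000101076) is annotated on chromosome 20 from 42984339 to 43061485 of the plus strand, and 84 bases of its exons are shared with the microRNA gene MIR3646.

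HNF4G, the second nuclear receptor of the family, fell 3.27-fold. It had 152 and 142 counts in unstimulated cells and 56 and 37 after IFNγ. These were 14.8 and 19.9 CPM against 5.45 and 5.05 CPM, or 17.3 ± 3.60 and 5.25 ± 0.282 CPM (mean ± SD, n = 2). The IFNγ libraries lay close together and the unstimulated ones further apart, with no overlap. The log2 fold change was −1.71 (SE 0.230, edgeR adjusted p = 0.00383), with −1.40 and −1.93 between the libraries numbered 1 and 2. In 1.02% of all tested genes the log2 fold change was lower still. HNF4G (ENSG00000164749) is annotated on chromosome 8 from 76320149 to 76479069 of the plus strand.

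The long noncoding RNA HNF4A-AS1, which is annotated on the opposite strand within the span of HNF4A but shares no exon with it, fell with a log2 fold change of −1.25 (SE 0.30, edgeR adjusted p = 0.0267). It had 235 and 117 counts in unstimulated cells and 108 and 42 counts after IFNγ. The groups did not overlap. The call was lost without unstimulated replicate 1 (log2 fold change −0.99, adjusted p = 0.103) and without IFNγ replicate 2 (−0.93, under the fold threshold). Whether the counting used strand is not given in the sources used here, so reads of a gene and of RNA from its other strand may not be separated.

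GATA4, the zinc finger factor of the proximal intestine, was called lower by a narrow margin. It had 93 and 82 counts in unstimulated cells and 63 and 27 after IFNγ. In CPM the values were 9.06 and 11.5 against 6.13 and 3.68, or 10.3 ± 1.72 and 4.91 ± 1.73 (mean ± SD, n = 2). IFNγ replicate 2 was the lowest, and the groups did not overlap. The log2 fold change was −1.03 (SE 0.298, edgeR adjusted p = 0.0496), a 2.04-fold fall, with −0.55 and −1.58 between the libraries numbered 1 and 2. The call rested on single libraries. It was lost without unstimulated replicate 1 (log2 fold change −1.20, adjusted p = 0.0642), without unstimulated replicate 2 (−0.85, adjusted p = 0.127) and without IFNγ replicate 2 (−0.75, adjusted p = 0.103). Without IFNγ replicate 1 it was −1.48 (adjusted p = 0.0125). It was also lost by DESeq2 (−1.05, adjusted p = 0.0741) and with upper quartile scaling, where −0.99 was under the fold threshold. GATA4 (ENSG00000136574) is annotated on chromosome 8 from 11534468 to 11617511 of the plus strand.

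GATA6, the paralog found along the whole gut, had the opposite sign. It had 746 and 594 counts in unstimulated cells and 1050 and 781 after IFNγ, or 77.9 ± 7.48 CPM against 104 ± 3.13 CPM (mean ± SD, n = 2). The groups did not overlap, and the log2 fold change of 0.42 (SE 0.124) lay just beyond the threshold (edgeR adjusted p = 0.0515). GATA6 (ENSG00000141448) is annotated on chromosome 18 from 19749550 to 19782491 of the plus strand. It shares 94 bases of exon with the antisense gene GATA6-AS1, and 321 with a second antisense gene.

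GATA6-AS1, a long noncoding RNA that is transcribed away from GATA6, fell. It had 207 and 110 counts in unstimulated cells against 86 and 66 after IFNγ, a log2 fold change of −1.04 (SE 0.206, edgeR adjusted p = 0.0132), and the groups did not overlap. Without unstimulated replicate 1 the call was lost (−0.83, adjusted p = 0.0670). GATA6 and GATA6-AS1 thus had log2 fold changes of opposite sign in the same libraries.

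FOXA1, a forkhead pioneer factor, had 834 and 630 counts in unstimulated cells and 1109 and 782 after IFNγ. The levels were 84.7 ± 4.99 CPM and 107 ± 0.828 CPM (mean ± SD, n = 2) and did not overlap. Its log2 fold change of 0.34 (SE 0.115) missed the threshold (edgeR adjusted p = 0.0770). FOXA1 (ENSG00000129514) is annotated on chromosome 14 from 38058757 to 38065264 of the minus strand, where 16 bases of exon overlap TTC6 on the other strand.

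FOXA2, the paralog with the stronger link to endoderm formation, had 148 and 101 counts in unstimulated cells and 154 and 149 after IFNγ. Its levels were 14.4 and 14.2 CPM against 15.0 and 20.3 CPM, so that IFNγ replicate 2 stood clear of the other libraries, although the groups did not overlap. The log2 fold change was 0.30 (SE 0.199, edgeR adjusted p = 0.331), with 0.05 and 0.52 between the libraries numbered 1 and 2. FOXA2 (ENSG00000125798) is annotated on chromosome 20 from 22561636 to 22566093 of the minus strand. LINC00261, the long noncoding RNA next to FOXA2, had 10 and 13 counts in unstimulated cells and 14 and 11 after IFNγ, and its log2 fold change of 0.08 (edgeR adjusted p = 0.929) turned to −0.35 without unstimulated replicate 1 and to −0.01 without IFNγ replicate 2.

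**Figure D2:**
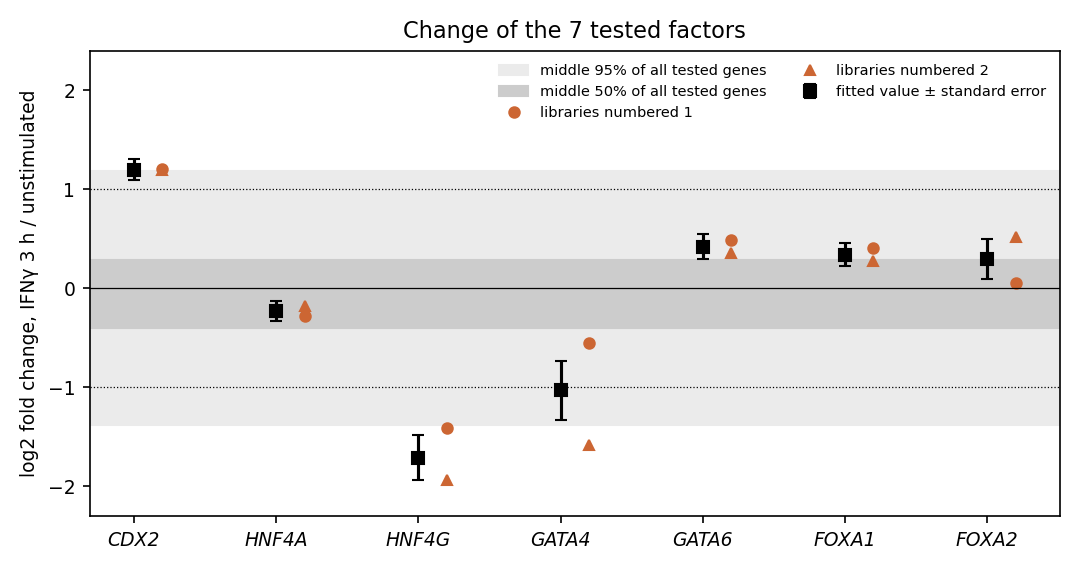
Log2 fold change of the 7 tested factors, IFNγ at 3 h over unstimulated. Squares with bars are the fitted value ± its standard error, circles and triangles the differences between the libraries numbered 1 and 2, and the grey bands hold the middle 50% and 95% of all tested genes. CDX2 at 1.20 and HNF4G at −1.71 lie outside the wider band, which runs from −1.38 to 1.18, and GATA4 at −1.03 has its 2 differences furthest apart.

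Per kilobase of exon (RPKM), the factors can be compared between genes only as far as the annotated exon lengths hold. These lengths join the exons of all annotated transcripts, and the annotation used for counting is not given. In unstimulated cells HNF4A was first at 98.2 RPKM, and 324 of the 14518 tested genes with an annotated length were higher. CDX2 followed at 50.4 RPKM, with 751 genes higher. GATA6 at 20.5 RPKM and FOXA1 at 19.2 RPKM came next, and the ranges of these neighbours overlapped. FOXA2 at 5.25, HNF4G at 3.62 and GATA4 at 2.31 RPKM formed the lower part of the order, and CDX1 at 0.216 RPKM was last. After IFNγ the first and second places were exchanged per kilobase, with exon lengths of 10167 bases for HNF4A and 3517 for CDX2. In CPM they were not exchanged, with HNF4A at 853 and CDX2 at 407 after IFNγ. CDX2 stood at 116 RPKM (115 to 116 over the libraries) and HNF4A at 83.9 RPKM (82.3 to 85.5). GATA6 followed at 27.5, FOXA1 at 24.3 and FOXA2 at 6.49 RPKM, each apart from its neighbour in range. GATA4 at 1.10 and HNF4G at 1.09 RPKM had overlapping ranges after IFNγ.

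The paralogs of a family can be set against each other within a library, which needs no scaling between libraries. HNF4G made up 1.43% (95% Wilson interval 1.23 to 1.68) and 1.99% (1.69 to 2.34) of the counts on HNF4A and HNF4G together in unstimulated cells. After IFNγ it made up 0.647% (0.498 to 0.839) and 0.577% (0.419 to 0.795). GATA4 took 11.1% (9.14 to 13.4) and 12.1% (9.88 to 14.8) of the counts on GATA4 and GATA6 in unstimulated cells, and 5.66% (4.45 to 7.18) and 3.34% (2.31 to 4.82) after IFNγ. In both families the less abundant paralog held a smaller share in each IFNγ library than in each unstimulated one. CDX1 held 0.273% and 0.158% of the counts on its pair, then 0.119% and 0%, where the intervals of all 4 libraries overlap. FOXA2 held 15.1% and 13.8% of the counts on FOXA1 and FOXA2, then 12.2% and 16.0%, so this pair showed no separation of the groups. With 2 libraries against 2, the two-sided exact permutation test cannot give less than p = 0.333, which it gave for the CDX, HNF4 and GATA pairs (0.444 adjusted over 4 pairs), and it gave 1.0 for the FOXA pair. The intervals cover counting error only. The shares are not corrected for GC content, which was 38.3% for HNF4G and 53.1% for HNF4A. Tested genes of like GC content had median log2 fold changes of −0.41 and 0.16.

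**Figure D3:**
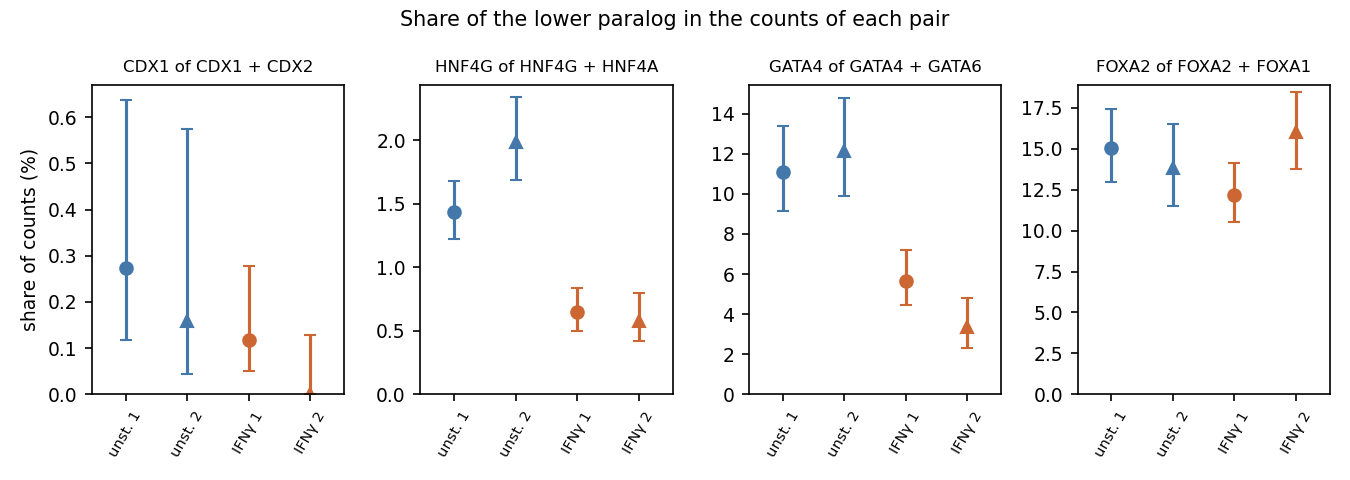
Share of counts (%) of the less abundant paralog of each pair in each library, with 95% Wilson intervals, unstimulated in blue and IFNγ in orange; each panel has its own axis from 0. HNF4G lies at 1.43% and 1.99% in unstimulated cells and at 0.647% and 0.577% after IFNγ, GATA4 at 11.1% and 12.1% and then 5.66% and 3.34%, and FOXA2 between 12.2% and 16.0% in all libraries.

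In the 14518 tested genes whose sequence was annotated, the log2 fold change moved with the GC content of the exons (Spearman rho = 0.447 across genes, which are not independent replicates). The GC content of the factors ran from 38.3% for HNF4G to 59.9% for FOXA2 among those tested. Genes within 2.5 percentage points of HNF4G had a median log2 fold change of −0.41, against −1.71 for HNF4G. Genes near GATA4 (59.3% GC) had a median of 0.22 and those near CDX2 (59.7% GC) of 0.21, so that GATA4 lay below and CDX2 above genes of like composition. For HNF4A the neighbours' median was 0.16, for GATA6 0.19, for FOXA1 0.07 and for FOXA2 0.21. With the trend of GC content and length removed from each library, the log2 fold change was 0.90 for CDX2, −1.35 for HNF4G, −1.31 for GATA4, −0.34 for HNF4A, 0.16 for GATA6, 0.19 for FOXA1 and −0.017 for FOXA2. CDX2 was then under the fold threshold but still past the adjusted p-value (0.00230 by edgeR).

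**Figure D4:**
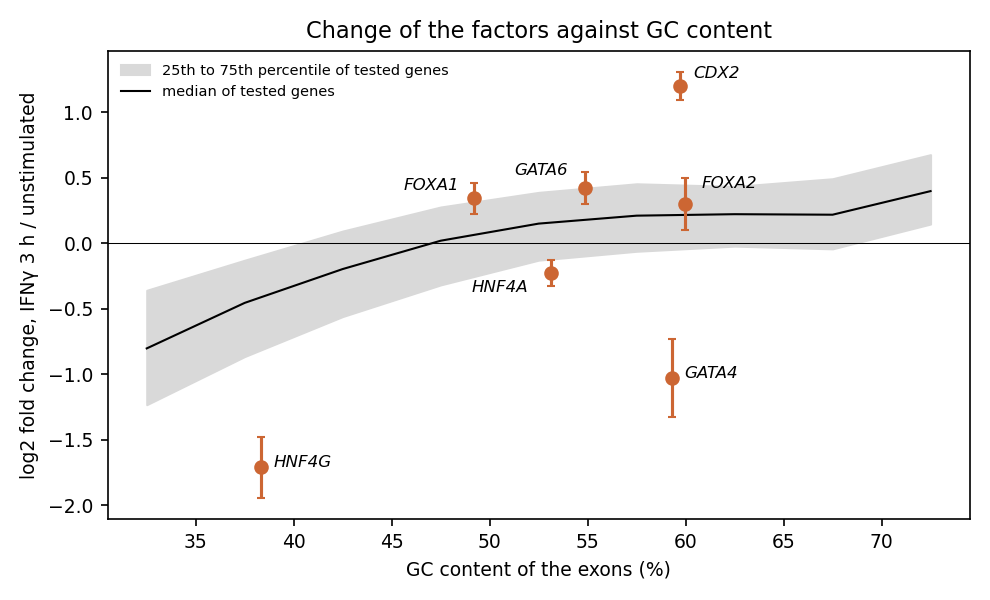
Log2 fold change (± standard error) of the 7 tested factors against the GC content of their exons (%), over the median (line) and the 25th to 75th percentile (grey) of tested genes in bins of GC content. The median rises with GC content. HNF4G (38.3% GC) and GATA4 (59.3% GC) lie below the grey band and CDX2 (59.7% GC) above it.

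Among 112 tested genes of the lists described here, the gene whose 4 centred log2 CPM values lay nearest to a factor was sought as a description. CDX2 was nearest to GBP2, an interferon-induced GTPase, at a Euclidean distance of 0.18, and HNF4G to PCK1 at 0.64. GATA4 was nearest to AFP at 0.18. GATA6 was nearest to ALPI at 0.06, FOXA1 to ABCB1 at 0.06 and FOXA2 to VTN at 0.15. The 4 values per gene come from the same libraries, so the order of these genes is a description of those libraries.

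Of 6 further members of the same families, 4 were tested, 1 was called higher and 0 lower, beside 2.88% and 4.40% of all tested genes. FOXA3, the third FOXA gene and a liver and gut factor, rose with 94 and 58 counts in unstimulated cells and 225 and 168 after IFNγ, or 8.64 ± 0.726 CPM against 22.4 ± 0.733 CPM (mean ± SD, n = 2). The groups did not overlap, and the log2 fold change was 1.37 (SE 0.173, edgeR adjusted p = 0.00333). GATA2, GATA3 and GATA5 did not pass the test, and the median over the 4 genes was −0.03. GATA1 was not tested, and CDX4 was not analysed here.

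Of 13 partners and antagonists of these factors, 9 were tested and 0 were called. By the edgeR adjusted p-value alone 2 were higher (22.2%) and 2 lower (22.2%), beside 9.02% and 11.0% of all tested genes. The other 5 did not pass it. ZFPM1 (FOG1), a cofactor that binds GATA factors, rose with a log2 fold change of 0.82 (adjusted p = 0.0101), and the orphan receptor NR2F6 rose by 0.52 (0.0202). SMAD4, the common mediator of TGF-β and BMP signals, fell with a log2 fold change of −0.83 (0.00892), and NR2F2 (COUP-TFII), which can compete with HNF4A for its sites, with −0.52 (0.0261). Several of these rested on single libraries. NR2F6 had an adjusted p of up to 0.0875 when 1 library was left out, NR2F2 of up to 0.0957 and ZFPM1 of 0.0544, the last without unstimulated replicate 1. With the trend of GC content and length removed, SMAD4 was at −0.21 (adjusted p = 0.324), NR2F6 at 0.19 (0.296) and ZFPM1 at 0.56 (0.0591). The coactivators EP300 (0.37, adjusted p = 0.120) and CTNNB1 (0.09, adjusted p = 0.628) had the highest mean CPM of the list over the 4 libraries. With the same trend removed, CTNNB1 was at 0.45 (adjusted p = 0.0453), past the test, and EP300 at 0.43 (0.0521). The median was 0.09.

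Of 32 other factors of gut lineages, 25 were tested, 2 were called higher (8.0%) and 1 lower (4.0%), beside 2.88% and 4.40% of all tested genes. By the adjusted p-value alone 7 were higher (28.0%) and 4 lower (16.0%), beside 9.02% and 11.0% of all tested genes. KLF4, a zinc finger factor of differentiated surface and goblet cells, rose from 82 and 55 counts to 350 and 238 (log2 fold change 2.08, SE 0.161, edgeR adjusted p = 0.000700). SOX9, a factor of crypt progenitors and Paneth cells, rose from 463 and 395 counts to 983 and 830 (1.06, adjusted p = 0.00464). MAF, a factor of mature enterocytes, fell from 2912 and 1683 counts to 1350 and 896 (−1.03, adjusted p = 0.00333). The groups did not overlap for any of these 3 genes, a weak criterion with 2 libraries per group. SOX9 was under the fold threshold without unstimulated replicate 1 (0.91) and without IFNγ replicate 2 (0.91), and MAF without unstimulated replicate 1 (−0.90). The same held for SOX9 with the GC and length trend removed (0.85) and for MAF with upper quartile scaling (−0.99). Under the fold threshold, CREB3L3, PRDM1, ASCL2, VDR and HOXA13 were higher and NR5A2, PPARG and BCL6 lower by the adjusted p-value. ASCL2 lost the test without each of the 4 libraries in turn, PRDM1 in 3 of these fits and BCL6 in 1, and PPARG was at −0.51 (adjusted p = 0.0640) with the GC and length trend removed. The median over the 25 genes was 0.03.

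Known targets were listed for each family. Of the 50 genes on these lists, 46 were tested, of which 3 were called higher (6.52%) and 4 lower (8.70%), beside 2.88% and 4.40% of all tested genes. By the adjusted p-value alone 4 targets were higher (8.70%) and 5 lower (10.9%), close to the 9.02% and 11.0% of all tested genes. Positive log2 fold changes were found in 32 of the 46 targets (69.6%) and in 49.4% of all tested genes, and the median was 0.12 over the targets. The lists share 10 genes, and a target can respond to several of the factors.

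Of the 15 tested CDX targets, LCT and CLDN2 were called higher (13.3%) and SI lower (6.67%), beside 2.88% and 4.40% of all tested genes. The median over the 15 genes was 0.15, and 0.023 without unstimulated replicate 1. CLDN2, the pore-forming claudin of leaky tight junctions, rose from 310 and 297 counts to 1270 and 989 (log2 fold change 1.86, SE 0.171, edgeR adjusted p = 0.00127). LCT, the brush border lactase, rose from 458 and 331 counts to 1236 and 726 (1.27, adjusted p = 0.00203). SI, the brush border sucrase-isomaltase, fell from 4306 and 3134 counts to 2651 and 984 (−1.13, adjusted p = 0.0256), with the difference of −0.70 between libraries numbered 1 and −1.71 between those numbered 2. LCT and SI, both disaccharidases and both listed for CDX and GATA factors, thus moved in opposite directions. SI was at −1.68 without IFNγ replicate 1 and under the fold threshold at −0.75 without IFNγ replicate 2, and with the GC and length trend removed it missed the adjusted p-value (−0.72, adjusted p = 0.0930), as it did by DESeq2 (−1.14, adjusted p = 0.0546). MUC2 and CA1, with at most 9 counts in any library, were not tested.

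Of the 19 tested HNF4 targets, PCK1 was called lower (5.26%), beside 4.40% of all tested genes. CREB3L3 was higher by the adjusted p-value alone (5.26%, beside 9.02% of all tested genes), and 17 did not pass. The median over the 19 genes was 0.09. PCK1, the gluconeogenic enzyme, fell from 141 and 77 counts to 50 and 34 (log2 fold change −1.37, SE 0.235, edgeR adjusted p = 0.00825). CREB3L3, a regulator of triglyceride metabolism, rose by 0.60 (adjusted p = 0.0144), and by 0.29 (0.127) with the GC and length trend removed, where it missed the test. The apolipoprotein genes of the list were all among those that did not pass. APOB, the structural protein of chylomicrons, had 4853 and 4042 CPM in unstimulated cells and 5662 and 3810 CPM after IFNγ, so that its groups overlapped.

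Of the 11 tested GATA targets, LCT was called higher (9.09%) and SI lower (9.09%), beside 2.88% and 4.40% of all tested genes. DAB1 was lower by the adjusted p-value alone (log2 fold change −0.75, edgeR adjusted p = 0.0150). The median over the 11 genes was 0.09. Without IFNγ replicate 1 that median was −0.06 and without unstimulated replicate 2 it was −0.02. Of the 11 tested FOXA targets, FOXA3 was called higher (9.09%) and 3 genes lower (27.3%), beside 2.88% and 4.40% of all tested genes. The FOXA median was 0.24, and 0.047 with the GC and length trend removed. ALB, the serum albumin gene, fell from 204 and 137 counts to 103 and 57 (log2 fold change −1.12, SE 0.193, edgeR adjusted p = 0.00831). AFP, alpha-fetoprotein, fell from 3535 and 2628 counts to 2150 and 930 (−1.08, adjusted p = 0.0140), and PCK1, given above, is the third. Without IFNγ replicate 2, AFP was at −0.79 and ALB at −0.98, both under the fold threshold, as they were at −0.80 and −0.84 with the GC and length trend removed. GATA4, SI and AFP were each lower in IFNγ replicate 2 than in IFNγ replicate 1.

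**Figure D5:**
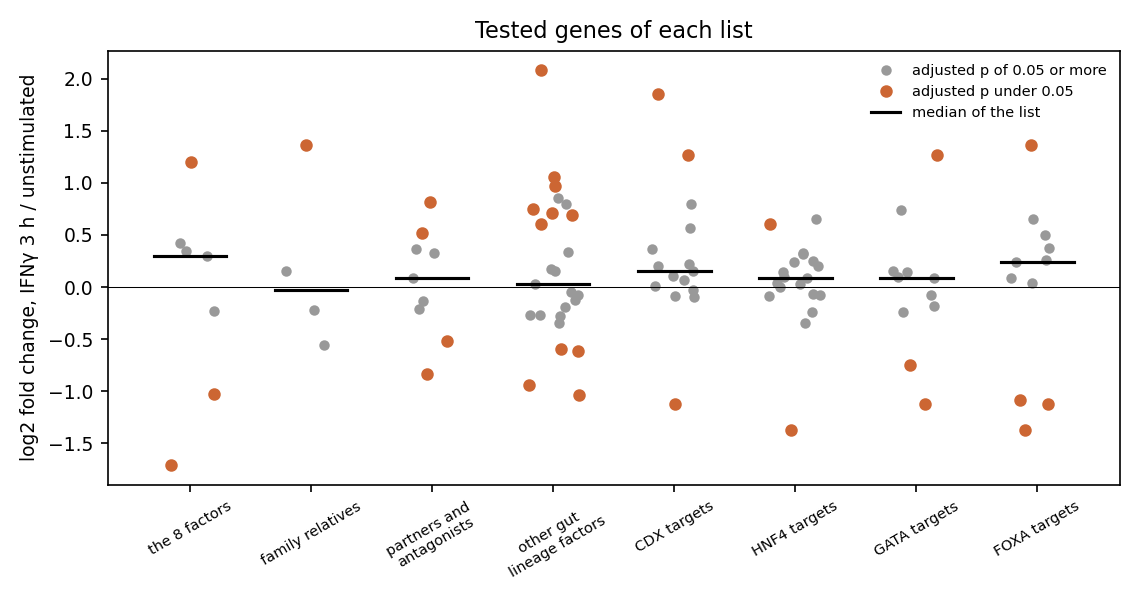
Log2 fold change of every tested gene of the 8 lists, IFNγ at 3 h over unstimulated, with genes at an adjusted p under 0.05 in orange, the others in grey, and the median of each list as a bar. Medians run from −0.03 for the family relatives to 0.30 for the factors themselves, where it is −0.017 with the GC and length trend removed. KLF4 at 2.08 and HNF4G at −1.71 are the extremes of these lists.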

How the data were processed

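RNA-seq was done on 4 libraries of Caco-2 cells. The authors deposited the counts per Ensembl gene as raw numbers, unnormalized and not pooled. Per the labels, RNA was isolated with a mirVana kit and 1 ug went into a TruSeq preparation. The submitters' processing notes name HISAT 0.5.1 and HTSeq 0.6.1p1, and the genome build, annotation and strand setting for these libraries are not given in the sources used here. No other columns were used. Symbols were paired with 96.5% of the identifiers. GRCh37 coordinates, exon length and GC content came from GENCODE 44, and promoters from RefSeq.

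Counts were tested with edgeR 4.0.16 in R 4.3.3 (glmQLFit and glmQLFTest, TMM, default filter on low counts, no block), and p-values were adjusted over all 14820 tested genes. Standard errors were derived from the log2 fold change and its F statistic. CPM and RPKM were computed from the counts here, and log2 CPM used a prior count of 2. Precision was limited by depth (7171455 to 10365346 counts) and by 2 libraries per group. The rule that gave the 8 factors uses names alone, but it and the lists were written with earlier results of these data known, so no list was tested as a set. The rule was to name the 8 factors and the called genes of each list or else its 2 genes of highest CPM. It also covered the nearest gene to each factor and the highest marker of each list. Of the genes under this rule, CDH17, RNF43, SERPINA1, TAP1, GBP1, PSMB9 and ICAM1 are given without values. Genes past the adjusted p-value alone, LINC00261, LGR5, APOB in the HNF4 list, and the markers at 0 lie outside that rule. They were named after their values were seen, as were genes given only as untested or not passing. The gene nearest to HNF4A is not reported here.

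Alternatives were DESeq2 1.42.0, other scalings, no filter or at least 10 counts in every sample, a replicate block, each library left out, an adjusted p under 0.01, shares per kilobase, and removal of the GC and length trend by a loess fit (span 0.3), which 98.0% of tested genes allowed. On simulated data, 200 genes changed 4-fold among 14536.8 genes on average over 5 simulations of this comparison, the main test recovered 97.1% and 2.02% of its calls were false. The simulated counts had trended dispersions only, without the GC trend or the correlation of same-numbered libraries. The changed genes were taken above a minimum mean count. These rates therefore do not give the reliability of the calls reported here, some of which lie near the fold threshold.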

Additional observations from a re-analysis of the deposited data

How the results depend on the processing

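The log2 fold changes of CDX2 and HNF4G kept their direction in all 13 alternative fits, from 0.90 to 1.24 for CDX2 and from −1.92 to −1.33 for HNF4G. Both kept an adjusted p under 0.05 in the fits with all 4 libraries. The call of CDX2 was lost with the GC and length trend removed, at 0.90 with and without the replicate block, under the fold threshold. Of 14 alternatives, the threshold of 0.01 included, 6 called 3 factors and 8 called 2. The number of factors past the adjusted p-value was 3, but 5 with upper quartile scaling. The replicate numbers of the 2 groups could not be shown to pair libraries: over genes, the deviations of same-numbered libraries from their group means correlated at r = 0.415, with 2 pairs only. With the replicate block, 6 factors passed the adjusted p-value, HNF4A at −0.23 (adjusted p = 0.0170), GATA6 at 0.43 (0.00813) and FOXA1 at 0.34 (0.0180) among them, and 2596 of all tested genes were higher and 2892 lower by that rule, against 1337 and 1626 without it; the counts of 4 of the 9 lists moved by over 1.5 times. GATA4 missed it with DESeq2 (−1.05, adjusted p = 0.0741) and ranged from −1.48 to −0.75 with a library left out. GATA6 passed with upper quartile scaling (0.47), with no filter (0.44) and with a minimum of 10 counts per sample (0.42), as did FOXA1 with upper quartile scaling (0.38). With the GC and length trend removed FOXA2 turned to −0.017 (−0.032 with the block), HNF4A passed at −0.34 with the block, and 336 instead of 652 of all tested genes were called lower, a share of 50.2% of the calls instead of 60.4%. Without IFNγ replicate 1, 1112 were called lower. LINC00261 ranged from −0.35 to 0.56 with a library left out. Of 19 called list and marker genes, 11 were called in every alternative and 8 lost a threshold with a library left out. Of 38 list and marker genes past the adjusted p-value, 22 passed in every alternative, 11 lost it with a library left out, 9 under another setting, and 0 reversed. Over the settings the median ran from −0.33 to 0.0080 for the family relatives and from −0.035 to 0.089 for the other gut factors, and that of the HNF4 targets from 0.018 to 0.13; with a library left out, that of the partners ran from 0.016 to 0.17. The causes were not tested.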

Other observations

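Among the marker lists, the epithelial keratins moved in both directions. KRT8 and KRT18, partner keratins of simple epithelia, rose from 878 and 993 CPM to 1530 and 1821 CPM (log2 fold change 0.84, edgeR adjusted p = 0.00566) and from 200 and 230 CPM to 345 and 448 CPM (0.88, adjusted p = 0.00873). KRT19 fell from 1081 and 1165 CPM to 724 and 869 CPM (−0.50, adjusted p = 0.0322), and missed the test in 3 of the 4 fits that left out a library, those without unstimulated replicate 1, unstimulated replicate 2 or IFNγ replicate 1, with an adjusted p of up to 0.0975.

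Of 6 stem cell markers, 4 were tested, 1 was called higher and 0 lower, beside 2.88% and 4.40% of all tested genes. The called gene was AXIN2, a target and inhibitor of Wnt signaling. It had 72 and 57 counts in unstimulated cells and 154 and 136 counts after IFNγ (log2 fold change 1.16, edgeR adjusted p = 0.00931). AXIN2 was under the fold threshold without IFNγ replicate 2 (0.98) and with the GC and length trend removed (0.91). ASCL2, given above, was higher by the adjusted p-value alone. LGR5 had 31 and 18 counts, then 14 and 23, so that its groups overlapped. Of 7 hepatocyte genes, FGB fell with a log2 fold change of −0.76 (adjusted p = 0.0233, and 0.0812 with the GC and length trend removed) beside ALB and AFP, and FGA rose by 0.61 (adjusted p = 0.0309, and 0.131 without unstimulated replicate 1).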
